A study of Arabidopsis thaliana with 16 samples.

Results

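The YUCCA (*YUC*) genes studied here are *YUC1* to *YUC10*, chosen by their TAIR10 locus identifiers, which gives 10 of the 27444 protein-coding genes on chromosomes 1 to 5. *YUC11*, the remaining member of the family, is given beside them. The trimethylation of lysine 27 of histone H3 (H3K27me3) was profiled by ChIP-seq in whole Arabidopsis seedlings at 3 and 1 days after imbibition (DAI). At each time point there were 3 genotypes, *Atsdr4l-4*, *Atsdr4l-5* and the wild type Col-0, with 2 replicates each, which gives 12 libraries. Both *Atsdr4l* alleles are segmental deletions of *AtSDR4L*, a co-repressor gene, in the Col-0 background. *Atsdr4l-5* came from a single edited line, and its seedlings were a bulk of backcross progeny without the nuclease. All seedlings were grown on medium with 1% sucrose. A list of broad peaks, called by the authors in each library, was the only measurement. In whole seedlings, a mark carried by fewer cells and a mark that is weaker in every cell cannot be told apart.

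YUCCA proteins are flavin monooxygenases that convert indole-3-pyruvate to indole-3-acetic acid, the main natural auxin. Their substrate is made from tryptophan by TAA1 and its relatives, and the YUCCA step is regarded as rate-limiting. The genes differ in where they act. *YUC1*, *YUC2*, *YUC4* and *YUC6* are known from shoots and flowers, *YUC1*, *YUC4*, *YUC10* and *YUC11* from embryos, and *YUC3*, *YUC5*, *YUC7*, *YUC8* and *YUC9* from roots. *YUC5*, *YUC8* and *YUC9* also respond to shade, and *YUC8* to warmth. H3K27me3 is set by Polycomb Repressive Complex 2 and is known to accompany stable repression, in plants often over whole gene bodies.

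Both measures were taken in a window made of the gene body and the 2 kb before its annotated start, the start site. Window coverage is the percentage of these bases that lie inside a peak. Peak fold is the authors' enrichment of pileup over local background, which is 1 value per peak, averaged over the covered bases of the window. Peak fold therefore belongs to the peak, which can extend past the gene. The 6 libraries of 3 DAI held 6582 to 7068 peaks that cover 24.9 to 28.2 Mb of the chromosomes, with a median peak fold of 2.05 to 2.23. The 6 libraries of 1 DAI held 6474 to 6800 peaks over 21.3 to 25.3 Mb, with a median peak fold of 1.79 to 1.99, and 5 of them also had peaks on organellar DNA, against none of the 3 DAI libraries. With equal numbers of peaks taken from each library, the differences between time points given below for the members were as without this step, on both measures, and no call changed. The part of the organellar peaks was not tested. Read counts are not part of these lists. The depth is therefore unknown and no detection limit can be given. *AG*, a classical Polycomb target, was covered over 100% of its window in all 12 libraries, *STM* over at least 99.7% and *FLC* over 78.3% to 96.0%. The gene bodies of the constitutive genes *ACT2*, *UBQ10* and *GAPC1* held no peak base in any library, but the 2 kb before them did. On window coverage *UBQ10* (15.1 points) and *GAPC1* (10.6 points) were higher at 3 DAI (adjusted p = 0.0420 by the exact permutation test), and *ACT2* had 34.8% to 42.2% at 3 DAI and 41.1% to 44.1% at 1 DAI. The window measure thus also counts peaks that lie beside a gene.

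Most of the family lay in H3K27me3 domains in these seedlings. At least 50% of the gene body was covered at 8 of 10 members in each 3 DAI library, and at 5 to 8 members in the 1 DAI libraries. The same share of the body was covered at 24.7% to 26.4% of all protein-coding genes at 3 DAI and at 20.3% to 22.2% at 1 DAI. *YUC1*, *YUC2*, *YUC6*, *YUC8* and *YUC10* passed this limit in all 12 libraries, and *YUC3* and *YUC7* in none. Peaks over the members were often wide. At 3 DAI the median peak of a library spanned 2216 to 2720 bp. The peak over *YUC2*, the widest among the members, spanned 24665 to 25571 bp. That over *YUC7* spanned 4024 to 4578 bp and that over *YUC3* 703 to 9129 bp. A window is more likely to meet a wide peak than a narrow one, which favours wide peaks at any gene.

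**Figure D1:**
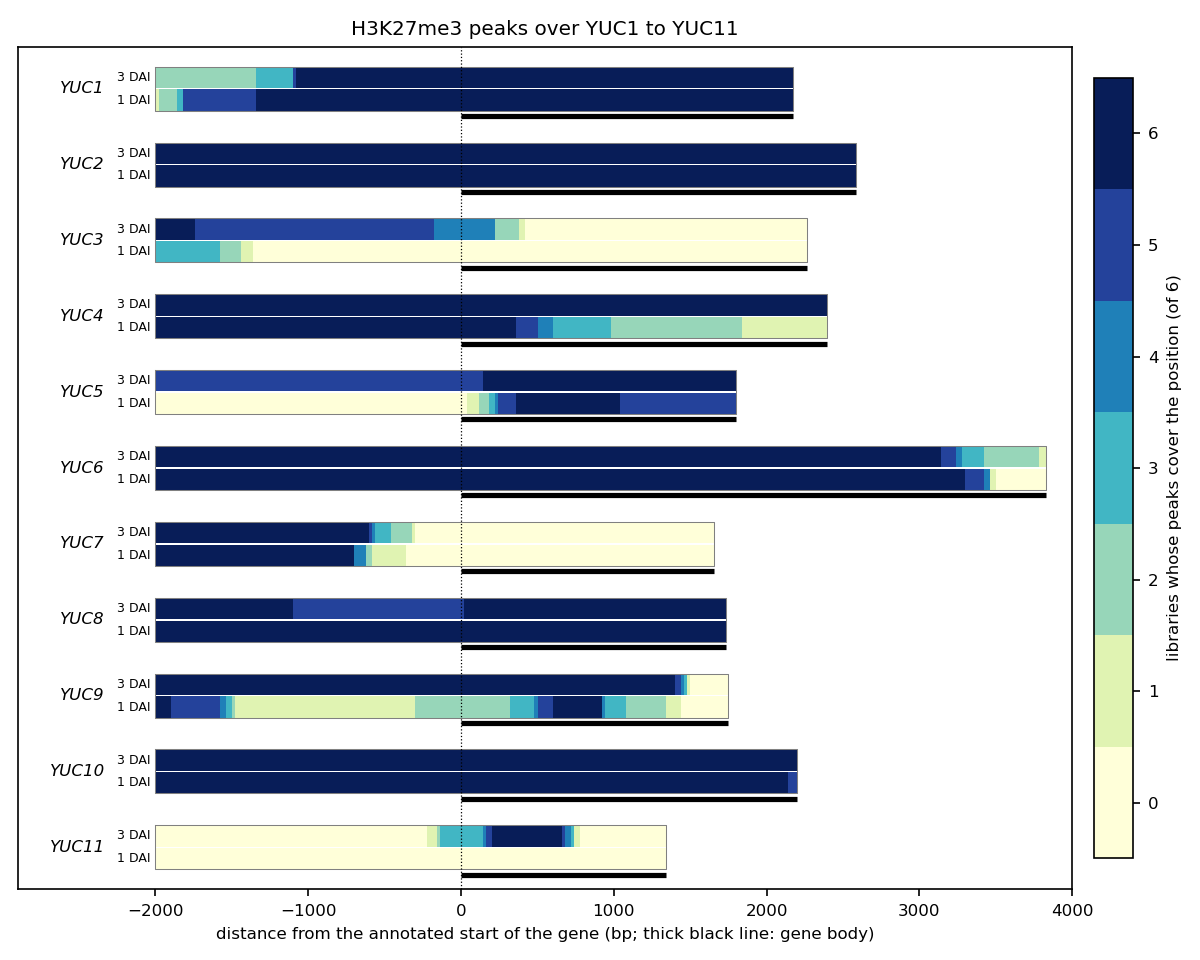
Position of H3K27me3 peaks over the *YUC* genes, by distance from the annotated start of the gene (x axis, bp, upstream negative), with the 3 DAI libraries in the upper strip of each gene and the 1 DAI libraries in the lower strip. Colour gives the number of libraries, of 6 at each time point, whose peaks cover the position, and the black bar is the gene body. *YUC2* is dark throughout, *YUC7* is empty over its whole body, and the promoters of *YUC5* and *YUC9* are filled at 3 DAI and mostly empty at 1 DAI.

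Among the members known from shoots and embryos, *YUC2* (AT4G13260, chr4:7721487-7724070, minus strand, 3 exons) was covered over 100% of its window in all 12 libraries. Its domain reached 18185 to 18836 bp past the start site at 3 DAI and held 3 other protein-coding genes. *YUC10* (AT1G48910, chr1:18091681-18093878, plus strand, 4 exons) was covered over 100% in 11 libraries and over 98.3% in *Atsdr4l-5* replicate 1 at 1 DAI. *YUC6* (AT5G25620, chr5:8934941-8938768, minus strand, 4 exons) was covered from 2 kb upstream to 3130 bp past the start site in every library, and the libraries differed only at the 3′ end of the gene. These 3 genes were thus marked along nearly their full length at both ages.

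*YUC1* (AT4G32540, chr4:15700829-15703000, plus strand, 4 exons) was covered over its whole body in all 12 libraries, and only the outer promoter varied. Window coverage of *YUC1* at 3 DAI was 78.8% and 100% in *Atsdr4l-4* seedlings, 100% and 78.4% in *Atsdr4l-5*, and 78.0% and 84.2% in Col-0, against 84.5% to 100% at 1 DAI. *YUC4* (AT5G11320, chr5:3611247-3613640, minus strand, 4 exons) was covered at both ages from 2 kb upstream to 351 bp past the start site. At 3 DAI the window of *YUC4* was covered over 100% in all 6 libraries. At 1 DAI it was covered over 59.0% and 67.7% in *Atsdr4l-4* seedlings, 53.5% and 100% in *Atsdr4l-5*, and 56.8% and 87.3% in Col-0. The time points met only at *Atsdr4l-5* replicate 2, and the 3′ 558 bp of the gene, which all 6 libraries of 3 DAI covered, were covered at 1 DAI in that library alone. *YUC11* (AT1G21430, chr1:7500845-7502186, plus strand, 3 exons) had no peak in any library of 1 DAI. At 3 DAI a peak of 527 to 948 bp lay over the 5′ part of *YUC11*, which began 233 bp before to 191 bp after the start site, and window coverage was 16.3% and 25.1% in *Atsdr4l-4* seedlings, 17.0% and 15.8% in *Atsdr4l-5*, and 27.3% and 28.4% in Col-0.

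Among the members known from roots, *YUC8* (AT4G28720, chr4:14192569-14194302, plus strand, 1 exon) was covered over 100% of its window in 11 libraries. The exception was *Atsdr4l-5* replicate 1 at 3 DAI, with 70.0%, where the domain stopped 1106 bp before the start site and began again 16 bp after it. *YUC7* (AT2G33230, chr2:14080319-14081971, minus strand, 3 exons) carried peaks only upstream. They ended 616 to 310 bp before the start site at 3 DAI and 710 to 366 bp before it at 1 DAI, and no base of the gene body lay in a peak in any library. The upstream window of *YUC7* holds another protein-coding gene, *LCR49*. Window coverage of *YUC7* was 37.9% to 46.3% at 3 DAI and 35.3% to 44.8% at 1 DAI, and the time points overlapped.

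*YUC3* (AT1G04610, chr1:1279351-1281618, plus strand, 3 exons) was the other member whose body stayed largely free of peaks. From 406 bp after the start site to its end, a stretch of 1863 bp, *YUC3* was covered in none of the 12 libraries. Window coverage of *YUC3* at 3 DAI was 5.88% and 51.6% in *Atsdr4l-4* seedlings, 56.3% and 55.6% in *Atsdr4l-5*, and 51.8% and 42.3% in Col-0. At 1 DAI it was 0% and 12.8% in *Atsdr4l-4* seedlings, 0% and 14.8% in *Atsdr4l-5*, and 0% and 9.75% in Col-0. All 3 libraries at 0% were replicate 1, and *Atsdr4l-4* replicate 1 at 3 DAI was the 1 library of that age inside the 1 DAI range.

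*YUC5* (AT5G43890, chr5:17648576-17650375, minus strand, 1 exon) was marked over its body at both ages and over its promoter at 3 DAI. Upstream coverage of *YUC5* was 0% in all 6 libraries of 1 DAI. At 3 DAI it was 100% in 5 libraries and 0% in *Atsdr4l-4* replicate 1. Window coverage of *YUC5* at 3 DAI was accordingly 44.0% and 100% in *Atsdr4l-4* seedlings, 100% and 100% in *Atsdr4l-5*, and 100% and 100% in Col-0. At 1 DAI it was 38.2% and 44.4% in *Atsdr4l-4* seedlings, 20.9% and 42.8% in *Atsdr4l-5*, and 46.6% and 41.9% in Col-0. The time points thus overlapped through a single library.

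*YUC9* (AT1G04180, chr1:1104493-1106241, plus strand, 2 exons) showed a large difference in window coverage between time points. Window coverage of *YUC9* at 3 DAI was 92.6% and 92.3% in *Atsdr4l-4* seedlings, 92.4% and 90.2% in *Atsdr4l-5*, and 91.4% and 93.3% in Col-0. At 1 DAI it was 22.8% and 24.1% in *Atsdr4l-4* seedlings, 18.5% and 26.9% in *Atsdr4l-5*, and 56.2% and 91.7% in Col-0. The 3 DAI libraries lay close together, the *Atsdr4l* libraries of 1 DAI were all low, and Col-0 replicate 2 of 1 DAI reached the range of 3 DAI. At 3 DAI a single peak of 4672 to 5248 bp ran over the promoter and most of the body of *YUC9*, whereas 11 peaks of 434 to 4917 bp lay over it in the 6 libraries of 1 DAI. A stretch of 1182 bp, from 1485 to 304 bp before the start site, was inside peaks in all 6 libraries of 3 DAI and in 1 library of 1 DAI, Col-0 replicate 2.

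**Figure D2:**
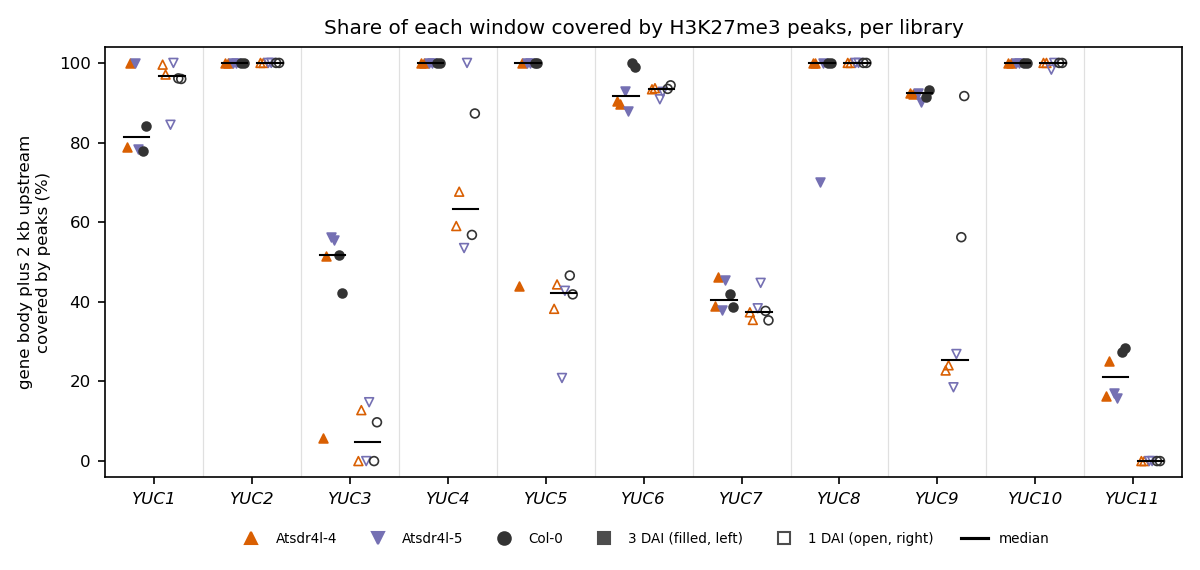
Window coverage (y axis, percentage of the gene body plus 2 kb upstream inside H3K27me3 peaks) of each *YUC* gene in each of the 12 libraries, with 3 DAI filled and left of 1 DAI open. Each symbol is 1 library, its shape and colour give the genotype, and the line is the median of 6 libraries. The filled symbols of *YUC9* sit between 90.2% and 93.3%, while 4 of its open symbols sit at or under 26.9%.

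The sequence under the varying part of these promoters was read from the RefSeq genome (TAIR10.1) to show which short motifs lie there. The RY motif CATGCA is bound by B3 factors, among them the VAL proteins that recruit Polycomb Repressive Complex 2. The G-box CACGTG is bound by bHLH and bZIP factors. The telobox AAACCCTA is bound by other factors that recruit this complex. On either strand of the 2 kb upstream, the RY motif was found in 8 of 10 members with 17 matches, against 54.4% of all protein-coding genes. The G-box, which reads the same on both strands, was found in 4 of 10 members with 6 matches, against 23.8% of all genes, and the telobox in 0 of 10 members, against 22.0%. Of the 17 RY matches, 8 lay inside peaks in all 12 libraries, 8 in more libraries of 3 DAI than of 1 DAI, and 1 in more libraries of 1 DAI. Of the 6 G-box matches, 1 lay inside peaks in all 12 libraries, 3 in more libraries of 3 DAI, and 2 in more libraries of 1 DAI. A match is a description of the letters and not evidence that a factor binds.

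The stretches below carry these motifs in capitals, with 15 bases on each side, written 5′ to 3′ on the strand of the gene. The first is the G-box pair of *YUC9* (chr1:1103348-1103415, plus strand, 1145 to 1078 bp before the start site), covered in 6 libraries of 3 DAI and 1 of 1 DAI. The next is the RY motif of *YUC9* nearest to its start site (chr1:1104415-1104450, plus strand), covered in 6 libraries of 3 DAI and 2 of 1 DAI. Then follow the outer RY motifs of *YUC9* (chr1:1102772-1102811, plus strand), where 3 matches overlap, covered in 6 libraries of 3 DAI and 5 of 1 DAI. The RY motif of *YUC3* (chr1:1279096-1279131, plus strand) and the G-box of *YUC5* (chr5:17651754-17651789, minus strand) were each covered in 5 libraries of 3 DAI and 0 of 1 DAI. The other two come from promoters marked at both ages. The G-box pair of *YUC8* (chr4:14192070-14192141, plus strand) was covered in 5 libraries of 3 DAI and 6 of 1 DAI, and the overlapping RY motifs of *YUC4* (chr5:3615506-3615545, minus strand) in 6 of each.
YUC9 G-box pair: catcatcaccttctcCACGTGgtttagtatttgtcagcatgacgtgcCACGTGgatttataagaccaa
YUC9 RY, inner: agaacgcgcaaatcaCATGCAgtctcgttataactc
YUC9 RY, outer: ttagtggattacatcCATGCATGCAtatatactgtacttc
YUC3 RY: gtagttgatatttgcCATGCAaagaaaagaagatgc
YUC5 G-box: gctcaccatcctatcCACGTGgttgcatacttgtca
YUC8 G-box pair: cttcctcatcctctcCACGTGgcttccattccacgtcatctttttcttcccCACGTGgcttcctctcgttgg
YUC4 RY, outer: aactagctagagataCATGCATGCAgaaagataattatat
The repeated RY core CATGCATGCA thus lay inside peaks of all 12 libraries in *YUC4* and of all but 1 library in *YUC9*. The G-box pair of *YUC9* lay in the part that varied, and so did other RY motifs of *YUC9* and those of *YUC3* and *YUC5*. The G-box of *YUC10* lay inside peaks of all 12 libraries. The motifs were therefore not divided into steady RY and varying G-box matches.

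The comparison of 3 DAI with 1 DAI asks how the mark on these genes differed between the ages. It was tested for each gene by an exact two-sided permutation test, with the ages of the libraries exchanged inside a genotype and p-values adjusted by Benjamini-Hochberg over all 15417 genes that had a peak base in some library. On window coverage, *YUC9* averaged 92.0% ± 1.08 at 3 DAI and 40.0% ± 28.7 at 1 DAI (SD, n = 6 libraries each), a difference of 52.0 percentage points. *YUC5* averaged 90.7% ± 22.9 at 3 DAI and 39.1% ± 9.36 at 1 DAI, a difference of 51.5 points. *YUC3* averaged 43.9% ± 19.3 at 3 DAI and 6.22% ± 7.0 at 1 DAI, a difference of 37.7 points. *YUC4* averaged 100% at 3 DAI and 70.7% ± 18.8 at 1 DAI, a difference of 29.3 points. Over all tested genes the median difference was 2.09 points, and a difference at least as large as that of *YUC9*, *YUC5*, *YUC3* and *YUC4* was found at 1.61%, 1.69%, 4.11% and 7.26% of them.

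None of the 10 members passed the adjusted threshold of 0.05 on window coverage, against 19.5% of all tested genes that were higher at 3 DAI by it. Coverage cannot exceed 100%. *YUC2* and *YUC8*, at 100% in every library of 1 DAI, and *YUC10*, at 98.3% to 100%, therefore had little or no room to rise. The share of all tested genes at this ceiling is not given here. The exact permutation p was 0.0185 for *YUC9*, *YUC5* and *YUC3* (adjusted p = 0.0704) and 0.0278 for *YUC4* (adjusted p = 0.0875). These 4 of 10 members were higher at an unadjusted p under 0.05, against 29.6% of all tested genes. Every library of 3 DAI was above every library of 1 DAI at 0 of 10 members, against 15.3% of all tested genes, since at each of the 4 genes 1 library crossed. limma assumes a common spread of normal errors and is not limited by the number of relabellings. By limma all 4 were called (adjusted p = 0.00411 to 0.0264), against 28.0% of all tested genes in either direction. The call therefore depended on the test. Of the remaining members, *YUC1* (difference −8.96 points), *YUC2* (0), *YUC6* (0.25), *YUC7* (3.39), *YUC8* (−5.0) and *YUC10* (0.28) had permutation p-values of 0.120 to 1. *YUC11* was higher at 3 DAI in all 6 libraries, by 21.7 points (adjusted p = 0.0420 by the exact permutation test).

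The 1 DAI peaks over *YUC9* were weak, with −log10 q of 2.08 to 7.48 against 8.31 to 11.1 at 3 DAI. When only peaks with a −log10 q of at least 5 were kept, the difference at *YUC9* became 87.8 points and passed the threshold (adjusted p = 0.0482 by the exact permutation test). With a minimum peak fold of 2, *YUC9* kept no peak at 1 DAI and none in *Atsdr4l-5* at 3 DAI. Its difference was then 61.6 points and did not pass (exact permutation p = 0.0556, adjusted p = 0.172). That of *YUC5*, 69.2 points, was larger. Without *Atsdr4l-4* replicate 1 of 3 DAI, *YUC3* and *YUC5* passed it (45.3 and 60.9 points). Without Col-0 replicate 2 of 1 DAI, *YUC9* passed (57.9 points), and without *Atsdr4l-5* replicate 2 of 1 DAI, *YUC4* passed (37.0 points).

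**Figure D3:**
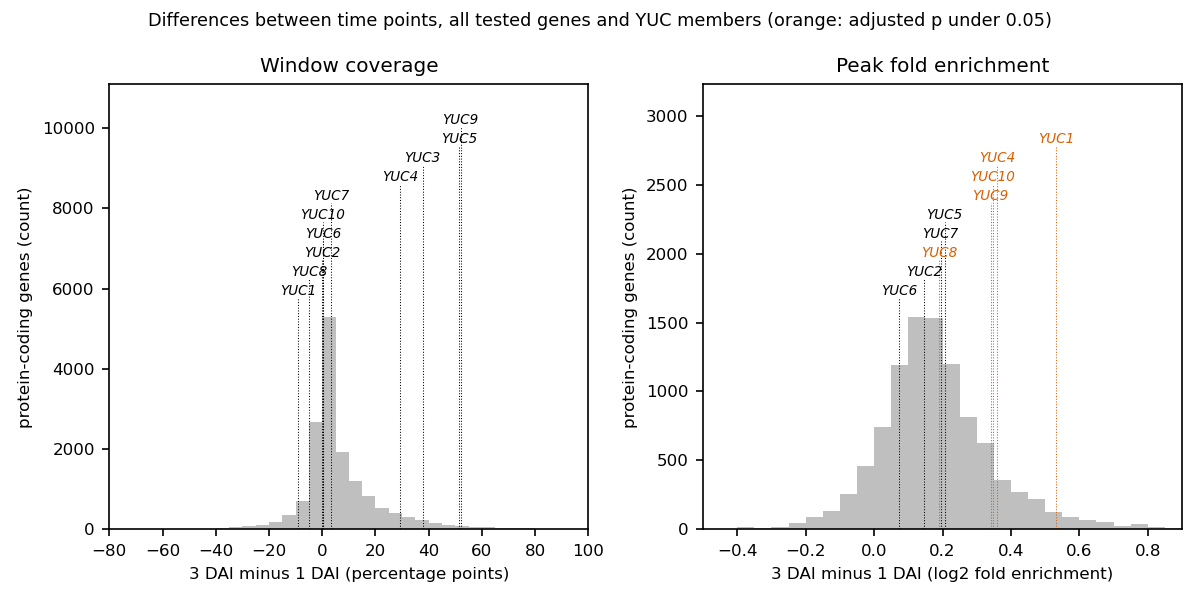
Differences between time points (x axis, 3 DAI minus 1 DAI) for all tested genes (grey bars, number of genes on the y axis) in window coverage (left, percentage points) and log2 peak fold (right), with the members marked by dotted lines. Orange names passed the adjusted threshold of 0.05. *YUC9* and *YUC5* lie at 52.0 and 51.5 points in the right tail of coverage, and *YUC1* at 0.53 in the right tail of log2 peak fold.

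Peak fold gave a different order of the members. It was tested in the same way on log2 values for the 9948 genes with a peak in all 12 libraries, among them every member but *YUC3*, which had no peak in 3 libraries of 1 DAI. Peak fold of *YUC1* at 3 DAI was 3.00 and 2.87 in *Atsdr4l-4* seedlings, 3.00 and 3.56 in *Atsdr4l-5*, and 3.63 and 3.32 in Col-0. At 1 DAI it was 2.00 and 2.26 in *Atsdr4l-4* seedlings, 2.09 and 2.33 in *Atsdr4l-5*, and 2.23 and 2.47 in Col-0. All 6 libraries of 3 DAI were above all 6 of 1 DAI, and the log2 difference of *YUC1* was 0.53 (adjusted p = 0.0254 by the exact permutation test). *YUC4* averaged 3.02 ± 0.133 at 3 DAI and 2.36 ± 0.213 at 1 DAI, a log2 difference of 0.36. *YUC10* averaged 2.57 ± 0.205 at 3 DAI and 2.02 ± 0.127 at 1 DAI, a log2 difference of 0.35. *YUC9* averaged 2.03 ± 0.0477 at 3 DAI and 1.6 ± 0.106 at 1 DAI, a log2 difference of 0.34. For *YUC4*, *YUC9* and *YUC10* the adjusted p was likewise 0.0254 by the exact permutation test, and the time points did not overlap. *YUC8* averaged 2.79 ± 0.154 at 3 DAI and 2.45 ± 0.203 at 1 DAI, a log2 difference of 0.19 (adjusted p = 0.0400 by the exact permutation test).

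Peak fold was thus higher at 3 DAI by the adjusted threshold at 5 of the 9 members tested, against 45.2% of all tested genes. The groups did not overlap at 4 of 9 members, against 27.3% of all tested genes. Over all tested genes log2 peak fold was higher at 3 DAI by a median of 0.16, a shift that affects every library of that age. Relative to this shift, *YUC1* was higher by 0.37, *YUC4* by 0.20, *YUC10* and *YUC9* by 0.18 each, and *YUC8* by 0.02. *YUC5* (0.04), *YUC7* (0.03), *YUC2* (−0.02) and *YUC6* (−0.09) lay close to it, and their adjusted p-values on the unshifted scale were 0.0530 to 0.199. When each peak was instead given its percentile among all peaks of its library, a scale without the shift, *YUC1* (22.0 percentile points), *YUC10* (14.6) and *YUC4* (12.4) were higher at 3 DAI (adjusted p = 0.0361 by the exact permutation test). That is 3 of 9 members, against 14.7% of all tested genes. On that scale *YUC9* was 20.03 points higher with an adjusted p of 0.0566 in the exact permutation test, and the difference at *YUC8* was 1.16 points. *YUC6* changed its sign to −7.14 points (adjusted p = 0.0566 by the exact permutation test), as did *YUC2*, to −2.14. The call at *YUC8* was also lost when any 1 of 9 of the 12 libraries was left out, and that at *YUC4* without *Atsdr4l-4* replicate 1 of 1 DAI (adjusted p = 0.0522 by the exact permutation test).

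**Figure D4:**
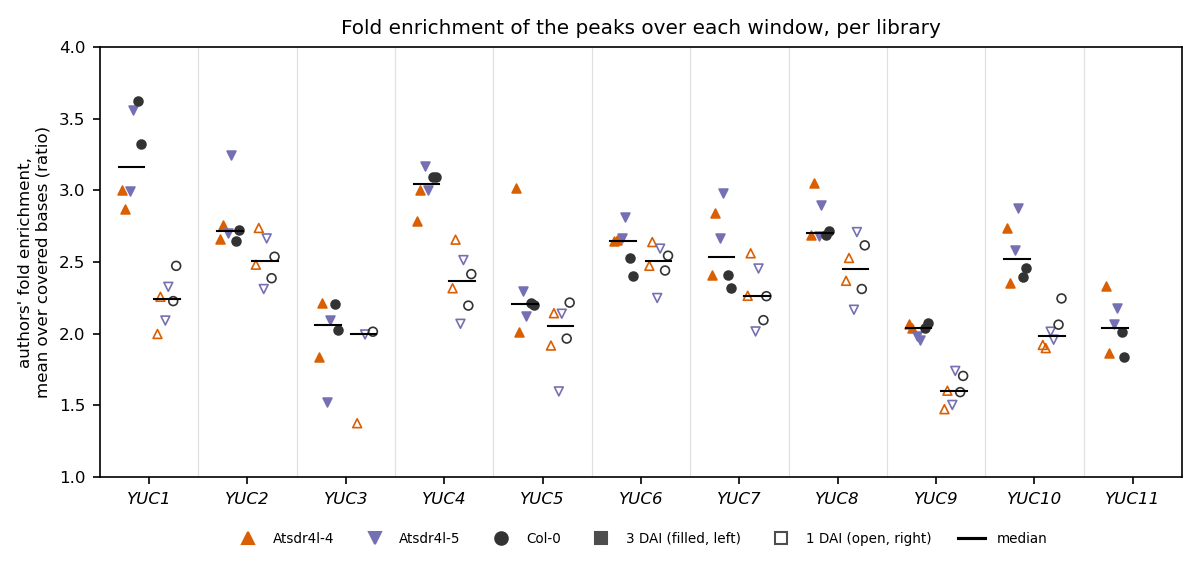
Peak fold (y axis, the authors' enrichment ratio averaged over the covered bases of the window) of each *YUC* gene in each library, with 3 DAI filled and left of 1 DAI open. Each symbol is 1 library with a peak, its shape and colour give the genotype, and the line is the median. *YUC1* has its 6 filled symbols between 2.87 and 3.63, above its open symbols between 2.00 and 2.47.

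At 3 DAI the mean peak fold ordered the family as *YUC1* (3.23 ± 0.319), *YUC4* (3.02), *YUC2* (2.79 ± 0.227), *YUC8* (2.79), *YUC6* (2.62 ± 0.139), *YUC7* (2.61 ± 0.268), *YUC10* (2.57), *YUC5* (2.31 ± 0.357), *YUC11* (2.05 ± 0.187), *YUC9* (2.03) and *YUC3* (1.98 ± 0.265). Except for *YUC4* with *YUC2* and *YUC8* with *YUC6*, neighbours in this order differed by less than the larger of their SDs. The level of peak fold at 3 DAI did not follow the change in coverage between time points. *YUC1*, highest in fold, had a gene body covered in full at both ages, while *YUC9*, with a difference of 52.0 points in coverage, had among the lowest folds. The change in log2 peak fold at *YUC9*, 0.34, was nevertheless close to that at *YUC10* (0.35) and *YUC4* (0.36). Peak fold of *YUC5* at 3 DAI was highest in *Atsdr4l-4* replicate 1, at 3.01, the library in which its peak held the gene body but not the promoter, against 2.01 to 2.30 in the other 5 libraries of that age.

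The comparison of *Atsdr4l* with Col-0 asks whether the mark on these genes differed between the genotypes at the same age. The paper describes late germination and abnormal establishment of *Atsdr4l* mutants. Loss of *AtSDR4L* and a difference in developmental stage therefore cannot be told apart here. The comparison was tested over both time points with the 2 alleles joined, by an exact two-sided permutation of the genotype labels within each time point. No member passed the adjusted threshold on either measure, and neither did any other tested gene. The smallest p this exact permutation test can give is 0.00444. Even at that p, the adjusted p was 0.398 on window coverage and 0.539 on log2 peak fold. The absence of calls therefore does not show that the mark was independent of *AtSDR4L*. With DiffBind, a different method, the paper reports many regions where H3K27me3 differed in *Atsdr4l* seedlings, more of them higher than lower. Unadjusted p-values under 0.05 were found at 1240 genes on window coverage and 738 on peak fold, and limma called 4 and 37 genes, with no member among them. On window coverage, 2 of 10 members were lower in *Atsdr4l* at an unadjusted p under 0.05, against 6.02% of all tested genes. The first was *YUC6*, which at 3 DAI had 90.5% and 89.7% in the *Atsdr4l-4* libraries, 92.9% and 88.0% in those of *Atsdr4l-5*, and 100% and 98.9% in Col-0. At 1 DAI *YUC6* had 93.4% and 93.7% in the *Atsdr4l-4* libraries, 90.9% and 92.7% in those of *Atsdr4l-5*, and 93.5% and 94.4% in Col-0. The 4 *Atsdr4l* libraries were below both Col-0 libraries at 3 DAI, while at 1 DAI the values of *Atsdr4l-4* reached those of Col-0. The difference at *YUC6* was −5.22 points (exact permutation p = 0.00889, adjusted p = 0.441) and lay at the 3′ end of the gene. The second was *YUC9*, with a difference of −25.7 points (exact permutation p = 0.0311, adjusted p = 0.522). Without Col-0 replicate 1 of 1 DAI it was −34.5 points and without replicate 2 −16.8 points. Either removal leaves a single Col-0 library at that age, so no p is given.

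The difference at *YUC9* lay at 1 DAI, where the 4 *Atsdr4l* libraries averaged 23.1% ± 3.47 and the 2 Col-0 libraries 74.0% ± 25.1. At 3 DAI the *Atsdr4l* libraries averaged 91.9% ± 1.1 and the Col-0 libraries 92.3% ± 1.38. The interaction of genotype and time point was 50.4 points for *YUC9* (exact permutation p = 0.0400, adjusted p = 0.926), the 1 of 10 members with an unadjusted p under 0.05, against 3.28% of all tested genes. The interaction became 68.2 points without Col-0 replicate 1 of 1 DAI and 32.7 points without replicate 2. Each removal leaves a single Col-0 library at that age. With a minimum peak fold of 2 the interaction at *YUC9* turned to −46.1 points (exact permutation p = 0.333). That limit removed every *YUC9* peak of 1 DAI. At 3 DAI it removed the peaks of *Atsdr4l-5* (1.98 and 1.95). Those of Col-0 (2.04 and 2.07) and *Atsdr4l-4* (2.07 and 2.04) stayed just above it. With a −log10 q of at least 5 the genotype difference at *YUC9* was 2.94 points (exact permutation p = 0.307). No Col-0 peak over *YUC9* at 1 DAI reached that q. On log2 peak fold, 0 of 9 members had an unadjusted p under 0.05 between genotypes, against 7.42% of all tested genes. The extremes were −0.14 at *YUC1* and 0.14 at *YUC7* (exact permutation p = 0.0756 and 0.107). For *YUC1* the percentile scale gave −8.59 points (exact permutation p = 0.00889, adjusted p = 0.212). It was the 1 of 9 members with an unadjusted p under 0.05 on that scale, against 13.8% of all tested genes. The interaction on log2 peak fold was 0.26 at *YUC10* (exact permutation p = 0.0356, adjusted p = 0.999). That was 1 of 9 members with an unadjusted p under 0.05, against 296 of 9948 tested genes. Within a single allele the test cannot reach 0.05, since its 36 relabellings allow no p below 0.0556. Taken alone, *Atsdr4l-4* differed from Col-0 by −25.2 points at *YUC9* and by −4.88 points at *YUC6*, and *Atsdr4l-5* by −26.1 and −5.56 points.

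The genes whose window coverage over the 12 libraries was most like that of *YUC9* were *LEA7* (AT1G52690), AT1G52680 and AT3G03400, with a mean absolute difference of 5.28, 6.18 and 6.76 percentage points. *LEA7*, which encodes a late embryogenesis abundant protein, and AT1G52680 are neighbours on chromosome 1. Coverage values of nearby genes share peaks and libraries.

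The rest of the auxin pathway was given by lists of synthesis, transport and inactivation genes. Of these 37 genes with *YUC11*, 34 had a peak base in some library. On window coverage 4 of them were higher at 3 DAI by the adjusted threshold and 1 was lower, beside 19.5% and 2.58% of all tested genes, with a median difference of 0.68 points. The 10 members had a median of 1.84 points and all tested genes of 2.09. Upstream of the YUCCA step, *TAA1*, the aminotransferase that makes their substrate, was covered over 100% of its window in all 6 libraries of 3 DAI and over 46.9% to 100% in those of 1 DAI. Its difference of 13.9 points did not pass (exact permutation p = 0.167), nor did those of *TAR2* (6.67 points) and *TAR1* (0.06 points). Of the indole-3-acetaldoxime and nitrile route, 0 of 7 genes passed. The nitrilase genes *NIT2* (12.3 points) and *NIT3* (−32.0 points) were its extremes (exact permutation p = 0.0370 and 0.0463), and *NIT1*, *NIT2* and *NIT3* are similar tandem copies whose reads may be shared. Of 4 tryptophan synthesis genes 2 had a peak base and 0 passed, with differences of 0.12 points at *TSB1* and −1.18 at *ASB1*.

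Among transport genes, *PIN6*, an efflux carrier of internal membranes, had 98.5% to 99.3% at 3 DAI and 57.3% to 93.0% at 1 DAI (23.6 points). *PIN2*, the root efflux carrier, had 66.7% to 73.5% at 3 DAI and 72.4% to 81.6% at 1 DAI (−8.00 points). Both passed the threshold (adjusted p = 0.0420 by the exact permutation test), the 2 of 8 *PIN* genes that did so. *PIN4*, another efflux carrier, had a difference of 15.6 points between time points (exact permutation p = 0.0185, adjusted p = 0.0704) and one of −29.7 points between *Atsdr4l* and Col-0. *PIN4* averaged 18.9% ± 5.19 in *Atsdr4l* and 63.0% ± 2.70 in Col-0 at 3 DAI, and 13.0% ± 3.32 in *Atsdr4l* and 28.2% ± 2.31 in Col-0 at 1 DAI (exact permutation p = 0.00444, the smallest this test can give, adjusted p = 0.398). The difference of *Atsdr4l* from Col-0 at *TAR2* was −8.92 points (exact permutation p = 0.0222, adjusted p = 0.488). On log2 peak fold it was 0.16 at *CYP79B2*, a cytochrome P450 gene of the acetaldoxime route (exact permutation p = 0.0178, adjusted p = 0.608). Of the influx carriers 0 of 4 passed between time points, with 1.27 points at *AUX1* and −14.3 at *LAX2* as the extremes.

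Of the inactivation genes 9 of 10 had a peak base and 2 passed, *GH3.9* (9.53 points) and *DAO2* (7.93 points), with an adjusted p of 0.0420 each by the exact permutation test. GH3 enzymes attach amino acids to auxin and DAO enzymes oxidise it. At unadjusted p-values of 0.0185, 0.0278 and 0.0370 by the exact permutation test stood *GH3.1* (3.87 points), *GH3.5* (10.02 points) and *GH3.17* (−2.92 points), and *GH3.6* had the lowest difference, −14.7 points. On log2 peak fold, 10 of the 25 pathway genes with a peak in every library were higher at 3 DAI by the adjusted threshold and 0 were lower. Among them were *TAA1*, *NIT2*, *NIT4*, *PIN5*, *PIN8*, *LAX3*, *GH3.1*, *GH3.2* and *DAO2*, with log2 differences of 0.17 at *LAX3* to 0.57 at *GH3.2*. These 10 of 25 genes stand beside a background of 45.2%. *PIN6* (0.16) and *GH3.4* (0.15) had an exact permutation p of 0.0463 (adjusted p = 0.0786). For the interaction of genotype and time point, *AUX1* had 14.7 points of coverage (exact permutation p = 0.0267, adjusted p = 0.926). On log2 peak fold the interaction was 0.31 at *PIN2*, 0.22 at *CYP79B3* and 0.16 at *TAA1* (exact permutation p = 0.0178, 0.0222 and 0.0444, adjusted p = 0.999 each). On the percentile scale 4 of the 25 were higher at 3 DAI and 2 were lower, beside 14.7% and 11% of all tested genes. The lower ones were *TSB1* (−5.03 percentile points) and *GH3.17* (−14.3).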

How the data were processed

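H3K27me3 ChIP-seq peak lists of 12 libraries, 2 for each of 6 groups of genotype and age, were used, and the mock IgG libraries were not used here. Reads had been trimmed with fastp 0.23.4, aligned to TAIR10 with Bowtie 2 and filtered with SAMtools 1.6, per the study's methods and the submitters' processing notes, which also name bcl2fastq 2.19 and MACS2 2.2.7.1 and 2.2.6. The authors called broad peaks in each library separately against concatenated mock IgG reads. As deposited, each peak has a fold, the ratio of pileup to local background averaged over the peak. The deposited −log10 p and −log10 q values are likewise MACS2 averages over the peak. The deposited score is a whole number made from −log10 q and was not used in any test. Wide domains are given 1 fold each, which can blur differences within them, and peak edges depend on the depth of the library, which is unknown.

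Gene models of 27444 protein-coding genes, and all sequences, came from RefSeq (TAIR10.1), whose nuclear chromosomes share the TAIR10 coordinates. Bases in peaks were counted over the gene body and 2 kb upstream. Python 3.11.15, numpy 2.4.6, scipy 1.17.1 and pandas 2.3.3 were used, with matplotlib 3.10.9 for plots and limma 3.58.1 in R 4.3.3 as an alternative test. Exact two-sided permutation tests exchanged time labels within genotypes (216 relabellings) or genotype labels within time points (225), and p-values were adjusted by Benjamini-Hochberg over all tested genes, with 0.05 as threshold. The smallest p-values possible were 0.00926 and 0.00444. The scripts were tested on simulated data. Nothing in the sources states that replicates were separate cultures, so p-values measure only the spread between these libraries. Neither labels nor files name a batch, and the deletions themselves cannot be checked in peak lists.

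Every member was named, and of the pathway lists the genes with an unadjusted p under 0.05 on window coverage or log2 peak fold and the highest and lowest on coverage between time points, except for 1 item that is not reported here. On the percentile scale the lists are given by counts and by the genes that were lower. Members and lists were chosen with earlier results of these data known. Alternatives were a −log10 q of at least 5, a fold of at least 2, equal numbers of peaks per library, other windows, joined gaps, other summaries of the fold, single alleles, a replicate block, limma, and leaving out each library.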

Additional observations from a re-analysis of the deposited data

Results flagged for a closer look

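Of 76 groups of 4 or 6 libraries of 1 age, 15 held a library far from the others by Dixon's criterion. Chance gives about 1 in 20 for values without a ceiling, and the groups overlap, since the 4 *Atsdr4l* libraries are among the 6. In 6 of the 15 the other libraries were all at 100%, where any gap meets the criterion. *Atsdr4l-4* replicate 1 of 3 DAI stood apart at *YUC3*, with a window coverage of 5.88% against 42.3% in the nearest of all libraries and 51.6% in the nearest *Atsdr4l* library. The same library stood apart at *YUC5*, in coverage (44.0%, nearest 100%) in both groupings and in log2 peak fold (1.59, nearest 1.20). Over all chromosomes it had the most peaks of the 3 DAI libraries (7068) and the least covered sequence (24.9 Mb). *Atsdr4l-5* replicate 1 of 3 DAI stood apart at *YUC8* in both groupings (70.0%, nearest 100%). *Atsdr4l-5* replicate 1 of 1 DAI had the lowest coverage at *YUC1* (84.5%, nearest 96.0%), *YUC5* (20.9%, nearest 38.2%) and, in both groupings, *YUC10* (98.3%, nearest 100%). *Atsdr4l-5* replicate 2 of 1 DAI had the highest at *YUC7* (44.8%, nearest 38.4%). *Atsdr4l-5* replicate 2 of 3 DAI had the lowest coverage of the *Atsdr4l* libraries at *YUC9* (90.2%, nearest 92.3%). It also had the highest log2 peak fold at *YUC2* (1.70, nearest 1.46) and, among the *Atsdr4l* libraries, at *YUC6* (1.49, nearest 1.42).

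*YUC9* was flagged because its difference of *Atsdr4l* from Col-0 at 3 DAI less that at 1 DAI was 50.4 percentage points of window coverage (exact permutation p = 0.0400, adjusted p = 0.926). Of 10 members tested, *YUC9* was the only one with an unadjusted p under 0.05, and it did not pass the adjusted threshold. The value was 68.2 points without Col-0 replicate 1 of 1 DAI and 32.7 points without replicate 2. Each removal leaves a single Col-0 library at that age. With a minimum peak fold of 2 the value turned to −46.1 points. That limit removed every *YUC9* peak of 1 DAI and, at 3 DAI, the peaks of *Atsdr4l-5* alone, which lay just below it. A difference between the ages is not established, since the value did not pass the adjusted threshold.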

How the results depend on the processing

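Between time points, 0 of 10 members passed on window coverage by the exact permutation test. This became 1 with peaks of a −log10 q of at least 5 (*YUC9*), 4 with limma (*YUC3*, *YUC4*, *YUC5* and *YUC9*), and 0 to 2 when each library was left out in turn. Of the 9 members tested on peak fold 5 passed. This became 2 of the 5 members that could still be tested with peaks of at least 2-fold (*YUC4* and *YUC8*; *YUC1*, *YUC9* and *YUC10* could not), 3 on the percentile scale, 8 with limma (all but *YUC6*), and 3 to 7 when each library was left out, the 3 when *Atsdr4l-4* replicate 1 of 1 DAI was absent and the 7 when Col-0 replicate 2 of that age was. The call at *YUC1* was kept in all 12 of these, at *YUC4* in 11 and at *YUC8* in 3. Of all tested genes, 22.0% were called on window coverage in either direction. This share was 19.2% with a −log10 q of at least 5 and 28.0% with limma. On peak fold 46.4% were called, 40.7% with peaks of at least 2-fold, 25.7% on the percentile scale and 58.6% with limma. With a library left out the share on peak fold was 23.1% to 57.2%. The number of members marked over their bodies in all 12 libraries was 5, and became 8 when 1 base was enough and 3 with peaks of at least 2-fold. Counts of members between genotypes and for the interaction stayed at 0 under each alternative run. With a single allele no other count was possible, since the smallest p of that test is 0.0556. The interaction was run only with peaks of at least 2-fold, for the gene body alone, with each library left out and with a replicate block. Apart from the counts, 9 of the 409 values of single members under other settings lost their call and 8 gained one, and of 576 values with a library left out 10 lost and 9 gained one. No called value turned its direction.

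Over all genes, the 3399 called on window coverage became 2124 with peaks of at least 2-fold, and 0 for the gene body alone, for the upstream 2 kb alone and without any 1 of 5 libraries, where the smallest adjusted p was 0.0509 to 0.0571, since the smallest p of the exact test lies close to the limit after adjustment. The 4611 genes called on peak fold became 2923 with a −log10 q of at least 5, 1979 with peaks of at least 2-fold, 2899 for the gene body alone, 2555 on the percentile scale and 2302 to 5735 with a library left out.

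On window coverage, replicate numbers did not pair the libraries. Peak fold was not tested for this. At 1 DAI the median peak fold was 1.82, 1.79 and 1.87 in replicate 1 of Col-0, *Atsdr4l-4* and *Atsdr4l-5*, and 1.97, 1.99 and 1.93 in replicate 2. At 3 DAI it was 2.08, 2.11 and 2.12 in replicate 1, and 2.05, 2.07 and 2.23 in replicate 2. Deviations in window coverage of libraries with the same number correlated at −0.083 to 0.216 over 15 pairs of groups, above 0.1 in 2 of them. With a replicate block, 0 members passed on either measure, and neither did any other gene. Between time points that test has 64 sign patterns and a smallest p of 0.03125, so a gene could pass only if most tested genes reached it. Its smallest adjusted p was 0.0673 on peak fold. Between genotypes it has 81 relabellings.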
